A study of Homo sapiens with 8 samples.

Results

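The genes described here encode the factors that carry the human ribosome through the elongation cycle, together with the kinase that restrains it. They were EEF1A1, EEF1A2, EEF1B2, EEF1D, EEF1G, EEF2, EEF2K, EIF5A, EIF5A2 and EEFSEC, and were taken by symbol, not by their measured values. These 10 genes are among the 12235 listed in at least 1 of 8 ribosome profiling libraries. Profiling sequences the mRNA fragments that ribosomes protect from nuclease, so the reads on a coding sequence reflect the ribosomes on it, not the amount of mRNA or protein. The cells were HEK293T, an established human embryonic kidney line carrying the SV40 large T antigen. They were kept overnight in medium with dialyzed serum that held every amino acid (Suff) or lacked arginine (Arg-), leucine (Leu-) or methionine (Met-). All 4 media came from the same custom base, with L-cysteine and L-histidine put back. Each medium was profiled with cycloheximide, which arrests elongating ribosomes and was added shortly before the cells were collected, and again without it. There was 1 library for each of the 8 conditions, so no difference below was tested, and the identity of the line was not checked against markers. The 3 starved libraries of a series share 1 Suff library.

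In each turn of the elongation cycle eEF1A brings aminoacyl-tRNA to the ribosome as a GTP complex, and the eEF1B complex reloads eEF1A with GTP. After peptide bond formation eEF2 moves the ribosome by 1 codon. eEF2 kinase, which is dependent on calmodulin, phosphorylates eEF2 and slows elongation, and is known to be held down by mTORC1 signalling when amino acids are plentiful. eIF5A, the only protein known to carry the amino acid hypusine, helps the ribosome form difficult peptide bonds. The mRNAs of ribosomal proteins and of many elongation factors are known to begin with a 5′ terminal oligopyrimidine (TOP) tract, a C followed by a run of C or T, through which mTORC1 governs their translation.

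The first 25 bases of the annotated mRNAs are printed here because a TOP tract, by definition, starts at the first base. They come from RefSeq (GRCh38.p14), lie in the 5′ untranslated exon, and are read 5′ to 3′ on the strand of the gene. RefSeq entries were matched for 8 of the 10 genes, and EEF1A2 and EEF1D had none in the table used. Capitals mark an unbroken run of C or T that begins at the first base or, where that base is a purine, at the next.
EEF1A1, chr6:73521008-73521032, minus strand: CTTTTTCgcaacgggtttgccgcca
EEF1B2, chr2:206159895-206159919, plus strand: CCTTTTTCCTCTCTTCagcgtgggg
EEF2, chr19:3985439-3985463, minus strand: CTCTTCCgccgtcgtcgccgccatc
EEF1G, chr11:62573867-62573891, minus strand: aCTTTgcggcagcgccgagaacccc
EEF2K, chr16:22206278-22206302, plus strand: gCTCaacctagaccagccccagctt
EIF5A, chr17:7307628-7307652, plus strand: gTactaagacccgtgtgcagcagcg
EIF5A2, chr3:170908613-170908637, minus strand: ggaactgccgcggccgccaccgccg
EEFSEC, chr3:128153481-128153505, plus strand: gCgggtgtccgaggcggcggcggcg

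EEF1A1, EEF1B2 and EEF2 begin with C and at least 4 further C or T, with runs of 7, 16 and 7 bases. Of all 35116 RefSeq entries of full length, 4.07% begin this way, on the strand of the gene. EEF1G has 4 pyrimidines after a first A, and the other 4 annotated starts have a run of at most 3. The entry of EEF1A1 starts upstream of the listed transcript, and that of EIF5A belongs to the transcript listed with cycloheximide. An annotated start is not a start measured in these cells, and a letter match shows neither a working TOP tract nor its lack.

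How far a footprint can be assigned to 1 gene differs widely among these genes. The study's methods keep reads that map once to the transcriptome, although the files' names mark this only in the series with cycloheximide. Each coding sequence was cut into every window of 28 bases, about the size of a footprint, and each window was looked up in the transcripts of all other genes of GENCODE release 44. EEF1A1 shared 98.97% of its windows with 44 other genes, among them the processed pseudogene EEF1A1P5 with 91.76%. For EEF1B2 the share was 87.65%. All windows of EEF1G, 100%, recurred elsewhere, nearly all of them in a readthrough transcript annotated as a separate gene. EIF5A shared 78.16% of the windows of the transcript listed with cycloheximide and 59.13% of the one listed without it, all with the protein-coding near copy EIF5AL1. EEF1D shared 20.93% and EIF5A2 12.27%. EEF1A2, EEF2, EEF2K and EEFSEC shared none (0%), so their values are the least open to sharing between genes. Their windows do recur in other transcripts of the same gene, 100% of them for EEF1A2, 78.88% for EEFSEC, 65.92% for EEF2K and 38.24% for EEF2. How the deposited values treated reads shared by such transcripts was not tested. The annotation release behind the deposited values is not given in the sources used here, so the part of shared reads in these levels was not tested.

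**Figure D1:**
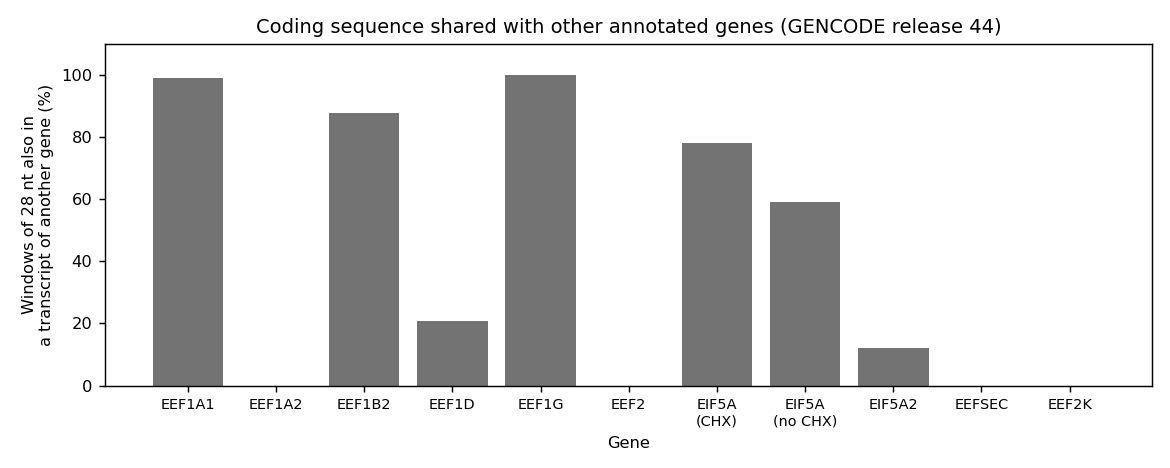
Bars give the percentage of the 28-base windows of each listed coding sequence that also occur in a transcript of another gene of GENCODE release 44, with 2 bars for EIF5A, whose listed transcript differed between the series. EEF1A2, EEF2, EEFSEC and EEF2K are at 0, while EEF1A1 and EEF1G are at 98.97% and 100%.

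The values are RPKM, that is, reads per length of coding sequence, scaled by the library's reads on all coding sequences, and 1 transcript per gene, the highest, was used. Reads on coding sequences ranged from 538222 (Met-) to 6434043 (Leu-) with cycloheximide and from 1302523 to 3139745 without it. No mRNA with fewer than 64 reads was listed in the first series, and none with fewer than 5 in the second. With cycloheximide 7 of the 10 genes were listed in Suff and in Met- and 9 in Arg- and in Leu-, and all 10 were listed in each library without it. An unlisted gene is given as an upper limit from the lowest listed read count, which holds only if it was left out for too few reads. Some genes were absent from a whole series though well read in the other. PPP2CA was unlisted with cycloheximide and stood at 272 RPKM in Suff without it. DHPS was unlisted without cycloheximide and stood at 67.4 in Suff with it. Intervals are 95% intervals of the read counts (exact Poisson for a level, exact Clopper-Pearson for a fold). They cover counting error only, and the spread between cultures is unknown. Since RPKM gives relative read density within a library, a fall in translation common to all mRNAs would not show.

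**Figure D2:**
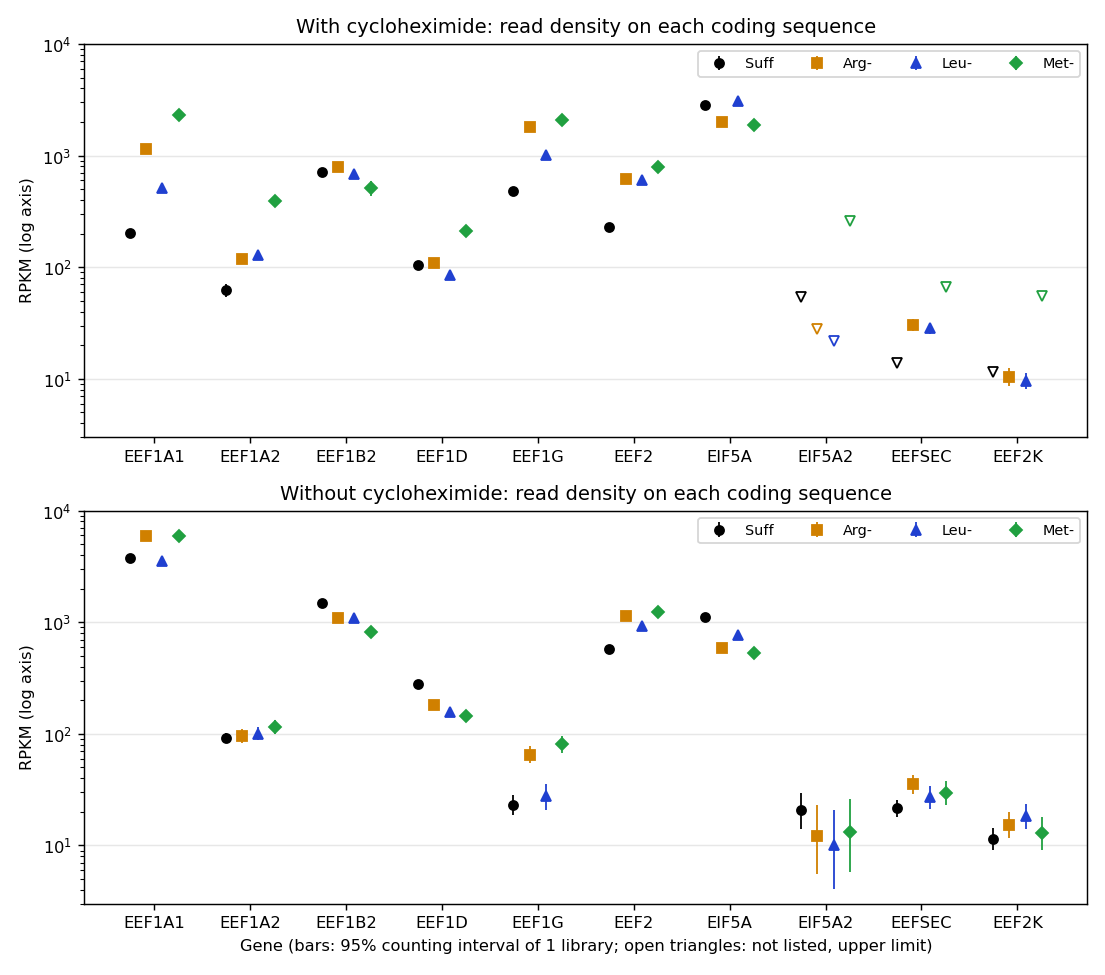
RPKM (log axis) of the 10 genes in the 4 media, with cycloheximide above and without it below, as 1 point per library with its 95% counting interval. Open triangles mark the upper limit where a gene was not listed. EEF1A1, EEF1G and EEF2 are lowest in Suff with cycloheximide, and EEF1B2, EEF1D and EIF5A are highest in Suff without it.

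eEF1A is encoded by a widely expressed gene, EEF1A1 (chromosome 6, 73515750 to 73521018, GRCh38), and by EEF1A2 (chromosome 20, 63488014 to 63499083), the form known from neurons and muscle. With cycloheximide EEF1A1 stood at 203 RPKM in Suff, 1135 in Arg-, 514 in Leu- and 2334 in Met-. Every starved library lay above Suff, by 5.58-fold in Arg- (5.17 to 6.03), 2.53-fold in Leu- (2.33 to 2.74) and 11.5-fold in Met- (10.5 to 12.5). Without cycloheximide its values were 3764 in Suff, 5936 in Arg-, 3545 in Leu- and 5950 in Met-. The increase over Suff was then 1.58-fold in both Arg- (1.54 to 1.61) and Met- (1.54 to 1.62), which did not differ beyond counting error, while Leu- was 1.06-fold lower than Suff (1.03 to 1.09). EEF1A1 was thus one of the most densely read mRNAs without cycloheximide, the 55th of 11437 genes in Suff and the 4th of 10871 in Met-, but the 1188th of 5466 in Suff with cycloheximide. The series differed in cycloheximide, in the lowest read count listed and, by the files' names, in the marking of unique mapping and in the removal of duplicate reads, and these cannot be told apart as sources of this gap.

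EEF1A2 shares no window with EEF1A1 and could be read separately. With cycloheximide it stood at 62.4 RPKM in Suff, 118 in Arg-, 129 in Leu- and 389 in Met-, so Suff was again lowest and Met- highest. The folds over Suff were 1.89 in Arg- (1.63 to 2.20), 2.07 in Leu- (1.79 to 2.40) and 6.24 in Met- (5.22 to 7.46). Without cycloheximide the 4 libraries lay close together, at 91.5 in Suff, 95.9 in Arg-, 100.3 in Leu- and 116 in Met-. No neighbours in that order differed beyond counting error, and the log2 ratio of 0.13 in Leu- changed sign when ratios were centred on the median of all mRNAs. Met- alone had an interval above 1, at 1.27-fold (1.07 to 1.499), and its log2 ratio was 0.02 relative to the median of all mRNAs. Per length, EEF1A2 had 0.307 times the RPKM of EEF1A1 in Suff with cycloheximide and 0.0243 times in Suff without it, and the part of the shared windows of EEF1A1 in these ratios was not tested.

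The eEF1B complex exchanges GDP for GTP on eEF1A through its alpha subunit, EEF1B2 (chromosome 2, 206159895 to 206162928), and its delta subunit, EEF1D (chromosome 8, 143579728 to 143590460), both held on the scaffolding gamma subunit, EEF1G (chromosome 11, 62559596 to 62573891). The subunits did not move together. For the exchange subunit EEF1B2 the values with cycloheximide were 719 RPKM in Suff, 784 in Arg-, 681 in Leu- and 509 in Met-. Met- was 1.41-fold below Suff (1.21 to 1.66) and Arg- 1.09-fold above it (1.02 to 1.17), and Suff and Leu- did not differ beyond counting error. Without cycloheximide EEF1B2 read 1489 in Suff, 1095 in Arg-, 1098 in Leu- and 813 in Met-, with every starved library below Suff. The shortfall was 1.36-fold in both Arg- (1.27 to 1.45) and Leu- (1.27 to 1.45), which did not differ, and 1.83-fold in Met- (1.69 to 1.99).

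EEF1D was read on a long isoform of 2091 coding bases, of whose windows 92.83% also occur in other transcripts of the gene, so the isoforms cannot be told apart. With cycloheximide it stood at 105 RPKM in Suff, 109 in Arg-, 85.0 in Leu- and 211 in Met-. Leu- was 1.23-fold lower than Suff (1.11 to 1.36) and Met- 2.02-fold higher (1.73 to 2.36), and Arg- did not differ from Suff beyond counting error. The ratio in Met- lay above 53.5% of all mRNAs listed in both libraries with a mean RPKM of at least 10. Without cycloheximide the order was reversed for Met-, with 278 in Suff, 181 in Arg-, 156 in Leu- and 146 in Met-. Suff was then above every starved library, by 1.53-fold over Arg- (1.40 to 1.68), 1.78-fold over Leu- (1.61 to 1.97) and 1.91-fold over Met- (1.71 to 2.13).

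EEF1G, unlike EEF1B2, was above Suff in most comparisons. With cycloheximide its values were 484 RPKM in Suff, 1822 in Arg-, 1008 in Leu- and 2097 in Met-, and every neighbour in their order differed beyond counting error. The folds over Suff were 3.77 in Arg- (3.58 to 3.97), 2.08 in Leu- (1.97 to 2.20) and 4.34 in Met- (4.04 to 4.65). Without cycloheximide the level of EEF1G was far lower in every medium, 23.0 in Suff, 65.2 in Arg-, 27.5 in Leu- and 80.6 in Met-, from 54 to 138 reads a library. Arg- and Met- were again above Suff, by 2.83-fold in Arg- (2.16 to 3.72) and 3.50-fold in Met- (2.68 to 4.60), while the interval of Leu-, at 1.19-fold, ran from 0.837 to 1.68. The RPKM ratio of EEF1G to EEF1B2 with cycloheximide was 0.673 in Suff, 2.32 in Arg-, 1.48 in Leu- and 4.12 in Met-. In the series without cycloheximide the same ratio was 0.0155 in Suff and 0.0992 in Met-, so the level of EEF1G beside its partner differed more between the series than between the media. EEF1G had no window of its own in the annotation used.

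EEF2 (chromosome 19, 3976056 to 3985463), the translocase, was above Suff in every comparison, on a coding sequence with no window shared with another gene. With cycloheximide it stood at 230 RPKM in Suff, 616 in Arg-, 606 in Leu- and 784 in Met-. Suff was far below the rest, and Arg- and Leu- did not differ beyond counting error. The folds over Suff were 2.68 in Arg- (2.53 to 2.83), 2.64 in Leu- (2.50 to 2.78) and 3.41 in Met- (3.15 to 3.69). Without cycloheximide its values were 576 in Suff, 1148 in Arg-, 926 in Leu- and 1242 in Met-. Each starved library was again above Suff, by 1.99-fold in Arg- (1.91 to 2.07), 1.61-fold in Leu- (1.54 to 1.68) and 2.15-fold in Met- (2.07 to 2.25), and every neighbour in the order differed beyond counting error. EEF2 was the only gene of the set above Suff by more than counting error in all 6 comparisons. Among all mRNAs listed in both libraries with a mean RPKM of at least 10, its ratio lay above 90.3%, 94.6% and 75.4% in Arg-, Leu- and Met- with cycloheximide, and above 91.6%, 83.4% and 83.5% without it. EEF2 and EEF1B2 both begin with a pyrimidine run, as printed above, and their RPKM ratio without cycloheximide went from 0.387 in Suff to 1.05 in Arg-, 0.844 in Leu- and 1.53 in Met-. With cycloheximide the same ratio was 0.320, 0.786, 0.890 and 1.54. Leu- and Met- thus gave like values in both series, while Suff and Arg- were lower with cycloheximide, with counting intervals that did not overlap.

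EEF2K (chromosome 16, 22206278 to 22288738), the kinase of eEF2, was translated at a low level. With cycloheximide it was listed at 10.4 RPKM in Arg- and 9.58 in Leu-, which did not differ beyond counting error. It was not listed in Suff, where the limit was 11.5, or in Met-, where the limit was 54.7, so no change could be read from that series. Without cycloheximide it stood at 11.4 in Suff, 15.4 in Arg-, 18.4 in Leu- and 13.0 in Met-, on 78, 54, 60 and 37 reads. No neighbours in this order differed beyond counting error. Only Leu- had an interval over Suff that left out 1, at 1.61-fold (1.13 to 2.29), and the ratio in Met-, 1.14-fold (0.751 to 1.71), changed sign when centred on the median of all mRNAs. Per length, EEF2 carried 50.5 times the reads of its kinase in Suff, 74.6 times in Arg-, 50.3 times in Leu- and 95.2 times in Met- without cycloheximide. These are footprints on the kinase mRNA, and say nothing of kinase activity or of eEF2 phosphorylation.

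EIF5A (chromosome 17, 7307628 to 7312463) went the other way from EEF2 in most comparisons. With cycloheximide it was among the most densely read of the set, at 2824 RPKM in Suff, 1983 in Arg-, 3102 in Leu- and 1878 in Met-. Arg- was 1.42-fold lower than Suff (1.36 to 1.49) and Met- 1.504-fold lower (1.36 to 1.66), and these libraries did not differ from each other, while Leu- was 1.10-fold higher (1.06 to 1.14). Without cycloheximide, on a longer transcript of 558 coding bases against 462, the values were 1114 in Suff, 582 in Arg-, 766 in Leu- and 528 in Met-. All starved libraries then lay below Suff, by 1.91-fold in Arg- (1.74 to 2.11), 1.46-fold in Leu- (1.33 to 1.59) and 2.11-fold in Met- (1.89 to 2.36). Its near copy EIF5AL1, which was not a member of the set, was listed only without cycloheximide, at 875, 311, 769 and 345 RPKM in Suff, Arg-, Leu- and Met-. The copy was thus lowest in Arg- and Met- as well, and reads of the pair cannot be fully separated.

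EIF5A2 (chromosome 3, 170888418 to 170908637), the second eIF5A gene, was not listed in any library with cycloheximide. If that was for too few reads, the limits ran from 21.7 RPKM in Leu- to 259 in Met-. Without it the gene stood at 20.7 in Suff, 12.1 in Arg-, 10.1 in Leu- and 13.3 in Met-, on 30, 9, 7 and 8 reads. All 3 starved values were below Suff, but every interval of a fold included 1, so no change was detectable at this depth. EEFSEC (chromosome 3, 128153481 to 128408646), the elongation factor that delivers selenocysteyl-tRNA, was listed with cycloheximide at 30.4 RPKM in Arg- and 28.4 in Leu-. It was not listed in Suff, where the limit was 13.98. If it was left out there for too few reads, its RPKM was at least 2.17-fold higher in Arg- and at least 2.03-fold higher in Leu-. These bounds take no account of counting error, so a rise of 2-fold is not established. No fold can be given for Met-, where the limit was 66.5. Without cycloheximide the values were 21.5 in Suff, 35.4 in Arg-, 27.2 in Leu- and 29.6 in Met-, all starved libraries above Suff. The folds were 1.64 in Arg- (1.25 to 2.16), 1.27 in Leu- (0.933 to 1.71) and 1.37 in Met- (1.01 to 1.86), and no neighbours in the order differed beyond counting error.

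**Figure D3:**
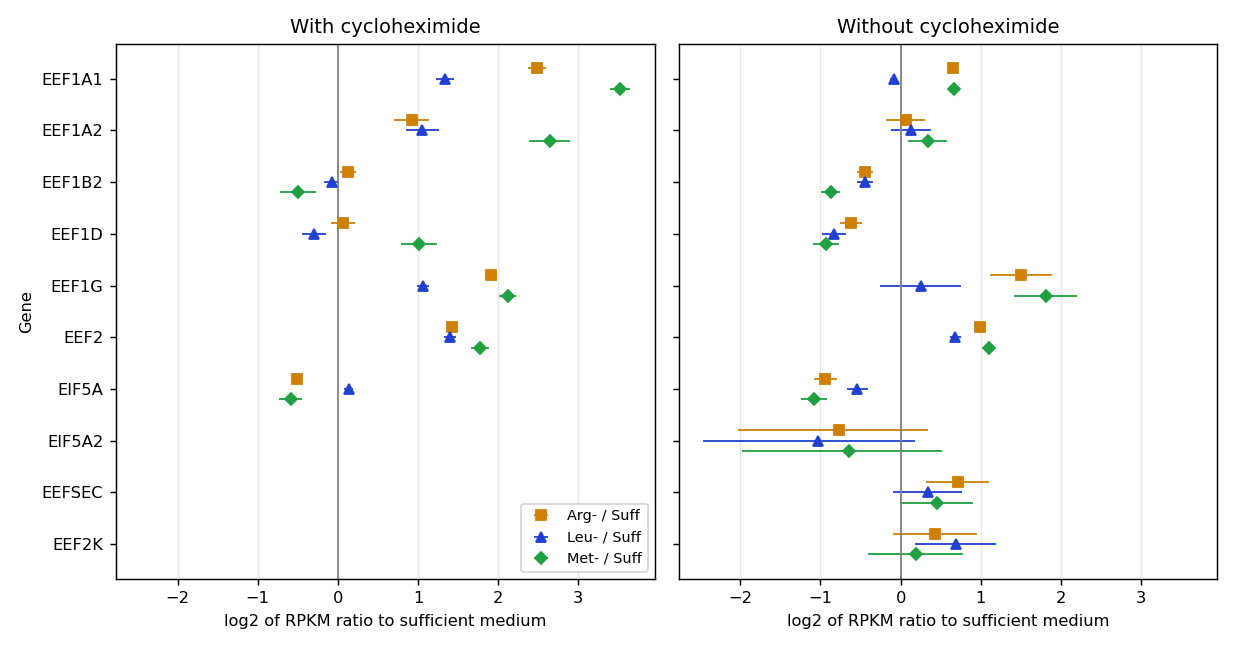
Points give the log2 of the RPKM ratio of each starved library to Suff for every gene listed in both, with cycloheximide (left) and without it (right), and bars the 95% interval of counting error with 1 library per condition. EEF2 lies to the right of 0 in all 6 comparisons, and EIF5A and EEF1B2 lie to the left of 0 in all 3 without cycloheximide.

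As a set, the genes were set beside all mRNAs listed in both libraries of a comparison with a mean RPKM of at least 10, on the scale log2((RPKM + 1)/(RPKM in Suff + 1)). With cycloheximide 3 of 7 genes in Arg- were at least 2-fold higher than Suff (EEF1A1, EEF1G and EEF2), where 16.6% of all such mRNAs were. In Leu- it was 4 of 7, EEF1A2 joining the same genes, against 12.1% of all mRNAs, and 2 of 7 when RPKM was rescaled to the reads outside the ribosomal protein mRNAs and the set, with EEF1G at 0.93 and EEF1A2 at 0.92. In Met- it was 5 of 7, EEF1D being the fifth, against 46.7%, so most of this count is shared with mRNAs in general. Rescaled in the same way it was 4 of 7, with EEF1D at 0.90. None of the 7 genes was at least 2-fold lower, where 19.7%, 7.28% and 9.79% of all mRNAs were in Arg-, Leu- and Met-. Counting unlisted mRNAs as 0, the shares of higher mRNAs were 29.7%, 26.3% and 21%, and those of lower mRNAs 18.4%, 6.32% and 61.9%. The Met- library had the fewest reads of all, and 2021 listed genes, which moves these shares.

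Without cycloheximide 1 of 10 genes was at least 2-fold higher in Arg- (EEF1G), none in Leu-, and 2 in Met- (EEF1G and EEF2), where 8.23%, 6.85% and 20.2% of all mRNAs were. EIF5A in Met- was the only gene at least 2-fold lower, and the shares of all mRNAs were 5.95%, 2.06% and 5.34% in Arg-, Leu- and Met-. With unlisted mRNAs as 0, they were 8.33%, 6.89% and 20.2% higher and 6.05%, 2.12% and 5.47% lower. Closest inside the limit of 2-fold were EEF1D in Met- with cycloheximide, at a log2 ratio of 1.01, and EEF1A2 in Leu-, at 1.04. EEF2 in Arg- without cycloheximide, at 0.99, and EIF5A2 in Leu-, at -0.96, were closest outside it.

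The median log2 ratio of the set with cycloheximide was 0.91 in Arg-, 1.04 in Leu- and 1.77 in Met-, beside -0.23, 0.02 and 0.89 over all mRNAs. The mRNAs of cytosolic ribosomal proteins, which build the machine these factors serve, had medians of -0.67, -1.20 and -1.17. Without cycloheximide the medians of the 10 genes were 0.23, 0.02 and 0.26, beside -0.02, 0.14 and 0.32 over all mRNAs and -0.25, -0.93 and -0.53 over the ribosomal protein mRNAs. A median near that of all mRNAs here joins genes at opposite ends. In Met- without cycloheximide EEF1G stood above 96.3% of all mRNAs and EEF2 above 83.5%, while EIF5A stood above 4.54%, EEF1D above 6.37% and EEF1B2 above 7.27%. Relative to the median of all mRNAs, the log2 ratios in Met- with cycloheximide were 2.62 for EEF1A1, 1.73 for EEF1A2, 1.22 for EEF1G, 0.88 for EEF2, 0.12 for EEF1D, -1.39 for EEF1B2 and -1.48 for EIF5A.

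**Figure D4:**
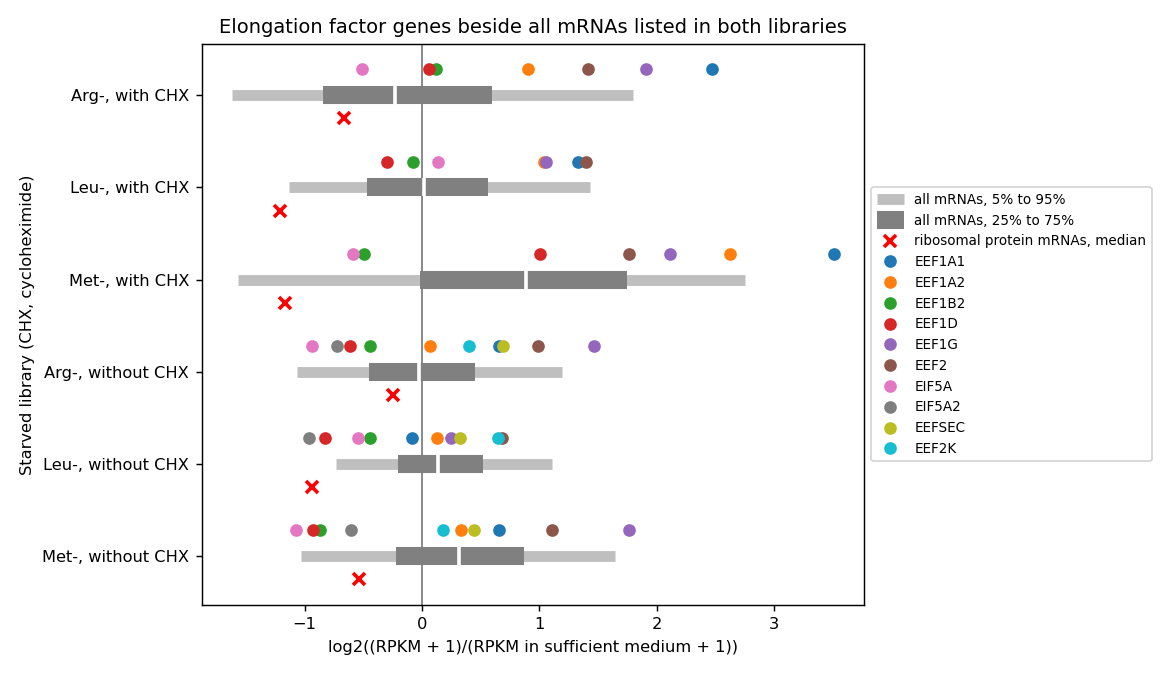
Dots are the log2((RPKM + 1)/(RPKM in Suff + 1)) of single genes in the 6 comparisons, over grey bars for the middle 50% and 90% of all mRNAs listed in both libraries with a mean RPKM of at least 10, a white line at their median and a red cross at the median of ribosomal protein mRNAs. EEF1A1, EEF1G and EEF2 lie right of the median of all mRNAs in all 3 rows with cycloheximide, and the crosses lie left of it in all 6 rows.

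Together the genes took 0.360% of the reads on coding sequences in Suff, 0.746% in Arg-, 0.591% in Leu- and 1.02% in Met- with cycloheximide. Every starved library was above Suff. Without cycloheximide the shares were 0.916%, 1.30%, 0.908% and 1.30%, so Leu- and Suff were nearly level. With the ribosomal protein mRNAs added, the shares went the other way, from 14.2% in Suff to 9.30%, 6.47% and 7.33% with cycloheximide and from 14.5% to 12.9%, 8.35% and 10.9% without it.

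The 7 genes listed in every library gave 21 ratios in each series, and 16 of them had the same sign with and without cycloheximide. The exceptions were EEF1A1 in Leu-, EEF1B2 in Arg-, EEF1D in Met- and EIF5A in Leu-, each above Suff with cycloheximide and below it without. For EEF1D in Arg- the signs differed as well, at 0.06 and -0.61, but the first turned negative when RPKM was rescaled to the reads outside the ribosomal protein mRNAs and the set.

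**Figure D5:**
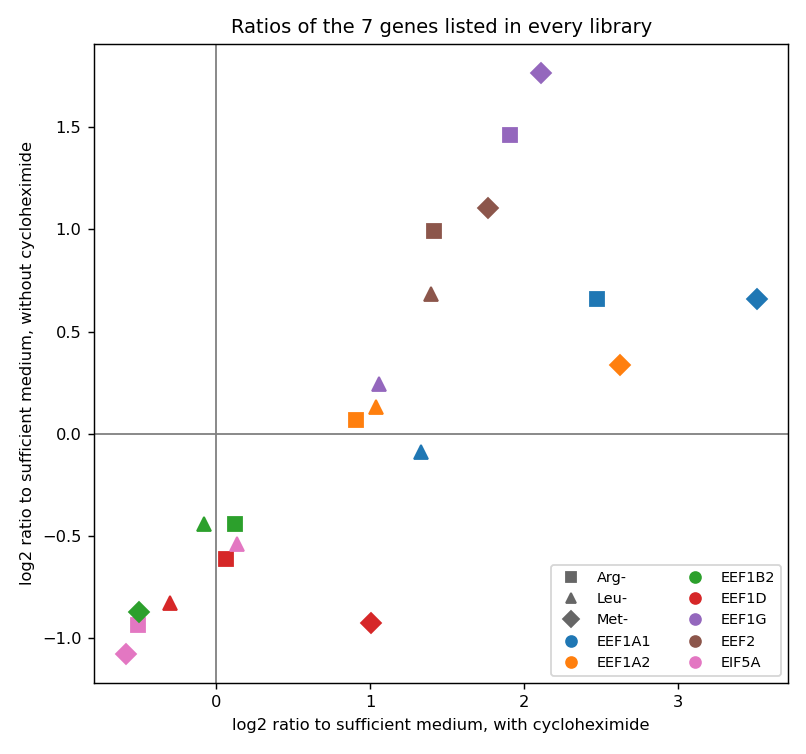
Each point is 1 gene in 1 starved medium, with its log2 ratio to Suff with cycloheximide on the horizontal axis and without it on the vertical axis (7 genes, 3 media, 1 library per condition). EEF2 and EEF1G lie above 0 on both axes in all media, and EEF1D in Met- lies far to the lower right, at 1.01 and -0.93.

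The genes with the most similar pattern were sought among 1724 genes with an RPKM of at least 10 in all 8 libraries, by the root mean square difference over the 6 log2 ratios. For EEF2 they were GPR107 (0.159), U2SURP (0.198) and RUSF1 (0.220). EEF1A1 had no neighbour as close, with NOC2L (0.369), PRKCSH (0.388) and NUDCD3 (0.439), and neither did EEF1G, with GANAB (0.393) and TM9SF4 (0.418). For EEF1A2 the nearest were RNF40 (0.161), SHMT1 (0.174) and PLD3 (0.184). EEF1B2 was nearest to PSMB4 (0.209), ELAVL1 (0.236) and SRSF3 (0.237), and EIF5A to TPI1 (0.181), SRSF3 (0.231) and ZMAT2 (0.237). RCC1 (0.243), RABAC1 (0.281) and the ribosomal protein mRNA RPS10 (0.287) were nearest to EEF1D. Within the set, EEF1B2 and EIF5A were the most alike (0.354), followed by EEF2 and EEF1G (0.470). The 6 ratios rest on 8 libraries and share 2 Suff libraries, so these distances are a description only.

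Among related genes, the release and GTPase factors, which end translation or rescue stalled ribosomes, were mostly above Suff in Arg- and Leu- with cycloheximide. At least 2-fold higher were 4 of the 7 compared in Arg- and 3 of 7 in Leu-, with medians of 1.16 and 0.84. In Met- only GSPT1 and GTPBP1 could be compared, 2 of 2 at least 2-fold higher, with a median of 1.66. The other genes, ETF1 at 97.3 RPKM in Suff among them, were not listed in Met-, where at least 64 reads were needed. Such a filter keeps genes that read high in Met-, so no direction is read from that count. Without cycloheximide 1 of 7, 0 of 7 and 1 of 7 were at least 2-fold higher in Arg-, Leu- and Met-, with medians of 0.31, -0.15 and 0.12. None of those compared was at least 2-fold lower in either series. The 2 partners of the eEF1 complex that could be compared with cycloheximide went opposite ways in every medium. Valyl-tRNA synthetase (VARS1), which binds the complex, was at log2 ratios of 1.65 and 1.40 in Arg- with and without cycloheximide. TPT1, a small protein known to bind eEF1A and eEF1B and whose mRNA is a known TOP mRNA, was at -1.26 and -1.09 in Arg- and at -1.41 and -1.36 in Leu-. TPT1 stood at 944 RPKM in Suff and 355 in Leu- with cycloheximide.

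Upstream of eEF2 kinase, 2 of the 3 genes compared in Arg- with cycloheximide were at least 2-fold lower, and 3 of 7 without it. In both series these included CALM3 (-1.22 and -1.09), which encodes calmodulin, the activator of the kinase. In Leu- none of 3 and none of 7 were past 2-fold in either direction. In Met- 1 of 1 was lower with cycloheximide and 1 of 7 without it.

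Among the enzymes that modify the elongation factors few were past 2-fold in Arg- or Leu-. With cycloheximide the Met- counts of these enzymes hold only genes with at least 64 reads in Met-, which favours higher ratios. DPH3, EEF1AKMT1 and DHPS, at 232, 71.2 and 67.4 RPKM in Suff, were not listed in Met-, so no direction is read from those counts. Of the 8 genes for diphthamide synthesis and eEF2 methylation, none of the 6 compared with cycloheximide in Arg- or Leu- and none of the 8 without it were, and in Met- 2 of 2 were higher with it and 1 of 8 lower without it. Of the eEF1A methyltransferases 1 of 2 was lower in Arg- and 1 of 1 higher in Met- with cycloheximide, and 1 of 3 was higher in Met- without it. METTL13, which modifies the N terminus of eEF1A, was at 2.55 and 1.09 in Met- with and without cycloheximide. It stood at 19.7 RPKM in Suff and 120 in Met- with cycloheximide, and at 46.7 and 101 without it. Of the 2 hypusine enzymes of eIF5A, 1 of 2 was lower in Arg- and 1 of 1 higher in Met- with cycloheximide. Without it only 1 of the 2, DOHH, could be compared, and it was not past 2-fold in any medium.

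Mitochondrial elongation factors were past 2-fold upward in 1 of 1 gene in Met- with cycloheximide, and in 1 of 4 in Arg- and 1 of 4 in Met- without it, and in no gene downward. For the selenocysteine machinery around EEFSEC, 1 of 3 was lower in Arg- and 1 of 1 higher in Met- with cycloheximide, and 2 of 5, 1 of 4 and 2 of 5 were higher in Arg-, Leu- and Met- without it. Of the selenoproteins, the products that need EEFSEC, 5 of 10 were lower and 1 higher in Arg- with cycloheximide, against 1 of 13 lower and 0 higher without it. In Leu- 2 of 10 were lower and 1 higher with cycloheximide, and 1 of 13 lower without it. In Met- with cycloheximide 3 of the 8 compared were higher and none lower, all 8 above Suff. Their median log2 ratio was 0.85, beside 0.89 over all mRNAs. Only genes with at least 64 reads in that small library could be compared, which favours higher ratios. MSRB1 and SELENOT, at 251 and 108 RPKM in Suff, were not listed there, so no direction is read from this count. Without cycloheximide none of 13 were past 2-fold in Met-. Only MSRB1, a methionine sulfoxide reductase, was at least 2-fold lower in both series, at -1.77 and -1.40 in Arg- and at -1.22 and -1.13 in Leu-. The background shares given above for all mRNAs apply to these counts. With cycloheximide, every Met- count in the related lists rests on genes with at least 64 reads in Met-, so genes below that dropped out.

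The share of the missing amino acid in each protein, translated from the listed coding sequence, is given here because each medium lacked 1 amino acid. EEF2 held 3.26% methionine, 8.51% leucine and 5.13% arginine, beside medians of 2.12%, 9.74% and 5.61% over all listed genes. Methionine made up 3.90% of the EIF5A product of the transcript listed with cycloheximide and 3.23% of the other. The product of the long EEF1D isoform listed, of 697 residues, held the least methionine of the set, 1.004%, and the most arginine, 8.18%. Shares in other EEF1D isoforms were not computed. EEF1B2 held the least arginine, 2.22%. These are properties of the sequences, and a link between them and the ratios was not tested.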

How the data were processed

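Ribosome profiling was done in HEK293T cells, with 1 library for each of 4 media with cycloheximide and 4 without it, grouped by the labels. Per the methods the authors removed adaptors, kept reads of 25 to 35 bases, trimmed bases of low quality and aligned the reads to human transcripts (GRCh38), allowing no mismatch and keeping those that mapped once. The submitters' processing notes name cutadapt and Bowtie. The names of the deposited files mark unique mapping with cycloheximide and removal of duplicates without it. The values deposited by the authors are RPKM per Ensembl transcript, and the annotation release is not given in the sources used here.

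Transcripts were matched to GENCODE release 44 (96.7% to 97.1% of each library), and the highest transcript of each gene was used. Whole reads were recovered from the steps of RPKM multiplied by coding length, and 97.2% to 97.4% of matched values were whole within 0.01 of a read. They gave the depth and the 95% counting intervals. Ratios to sufficient medium used a pseudocount of 1 on which fold changes of weakly read mRNAs come out too small. No p-value was computed, for want of replicates. The text names the 10 genes, the 3 genes most like each of those listed in all libraries, and genes of related lists at least 2-fold from sufficient medium in 1 direction in both series, and some of the genes these rules select are not reported here. EIF5AL1, EEF1A1P5 and further sharing copies were named after the sequence match. The genes, lists and rules were chosen with earlier results of these data known. Alternatives were another pseudocount, fold limit, minimum RPKM, transcript choice, centring and scaling. Scripts were tested on simulated data. The software was Python 3.11.15 with scipy 1.17.1, pandas 2.3.3, numpy 2.4.6 and, for figures, matplotlib 3.10.9.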

Additional observations from a re-analysis of the deposited data

Results flagged for a closer look

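In 4 cases a gene stood above sufficient medium with cycloheximide and below it without, each beyond counting error in its own series. The log2 ratios were 1.33 and -0.09 for EEF1A1 in Leu-, 0.12 and -0.44 for EEF1B2 in Arg-, 1.01 and -0.93 for EEF1D in Met-, and 0.14 and -0.54 for EIF5A in Leu-. When RPKM was rescaled to the reads outside the ribosomal protein mRNAs and the set, the ratios with cycloheximide were 0.04 for EEF1B2 in Arg- and 0.01 for EIF5A in Leu-, smaller than their counting error. In Met- with cycloheximide the median of all mRNAs was itself 0.89. Relative to the median of all mRNAs, EEF1D in Met- was at 0.12 with cycloheximide and -1.24 without it. The difference between the series was not tested, since each condition has 1 library. The series differ in cycloheximide, in the lowest read count listed and, by the files' names, in the marking of unique mapping and in duplicate removal, which cannot be told apart. EIF5A was also read on a different transcript in each series.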

How the results depend on the processing

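No paired analysis was possible because each condition has 1 library, and for the same reason no library could be left out. Summing transcripts or fixing 1 transcript per gene changed none of the 51 log2 ratios. A pseudocount of 0.1 moved them by at most 0.06 and changed no sign, and made EIF5A2 in Leu- without cycloheximide at least 2-fold lower, 1 gene against 0. Centring on the median of all mRNAs moved ratios from -0.89 to 0.23 and turned the sign of EEF1A2 in Leu- and EEF2K in Met- without cycloheximide. It took the median of the set to 1.14 in Arg- and 0.88 in Met- with cycloheximide, and to -0.12 in Leu- and -0.06 in Met- without it. With cycloheximide it left 3 genes at least 2-fold higher and 2 lower in Met-, and without it 2 higher in Arg-, 1 lower in Leu-, and 1 higher and 3 lower in Met-. Rescaling to reads outside ribosomal proteins and the set turned the sign of EEF1D in Arg- with cycloheximide. It left 2 genes higher in Leu- and 4 in Met- with cycloheximide, and put 1 lower in Leu- without it. At a limit of 1.5-fold 1 gene was lower in Met- with cycloheximide, and without it 4 were higher and 3 lower in Arg-, 2 higher and 2 lower in Leu-, and 4 lower in Met-. Over all mRNAs, with unlisted ones counted as 0, 1851, 1638 and 1009 were at least 2-fold higher in Arg-, Leu- and Met- with cycloheximide and 1144, 394 and 2973 lower. Among mRNAs listed in both libraries it was 844, 629 and 882 higher and 1001, 379 and 185 lower, and with no minimum RPKM 3612, 4084 and 1013 higher. A minimum of 50 gave 512, 429 and 785 higher, and 1141 lower in Met-. Centring gave 2017 higher and 1539 lower in Met-, and 650 lower in Leu-. Without cycloheximide 622, 521 and 1596 were higher and 452, 160 and 432 lower in Arg-, Leu- and Met-. With no minimum it was 1202, 1038 and 2485 higher and 1067, 720 and 1104 lower. With a minimum of 50 it was 173, 149 and 382 higher, and 264 and 92 lower in Arg- and Leu-, and with centring 341 and 849 higher and 264 and 850 lower in Leu- and Met-. By Pearson correlation in place of distance the nearest genes were others for all 7 genes, for example CALR, ATG4B and LAMP1 for EEF2. Depth limits EIF5A2, EEF2K and EEFSEC, and EEF1G without cycloheximide.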
